A study of Rattus norvegicus with 28 samples.

Results

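The blood-spinal cord barrier and endothelial genes described here are 10 genes named by symbol: the tight junction genes Cldn5, Ocln and Tjp1, the endothelial genes Pecam1 and Vwf, the ligand Vegfa with its receptors Kdr and Flt1, the angiopoietin receptor Tek, and the transporter gene Abcb1a. They were chosen with earlier results of these data known. A gene belonged to the set where the gene name printed in the array annotation equalled its symbol. All 10 were found, on 18 probes and 27 spots, among the 35469 features of the array, and each was taken as the mean of its probes and also probe by probe. The study followed RNA in rat spinal cord after severe contusion, and asked what transplanted neural progenitor cells (NPC) did to it, on 28 single-dye arrays in 7 groups of 4 biological replicates.

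All animals were adult female Sprague Dawley rats, perfused with saline before 1.5 cm of thoracic cord was dissected without the dura. T0 was the group without contusion, which the labels call sham and the study's text calls uninjured. T1, T2, T4 and T8 received a contusion of 250 kdyn at thoracic level 8 and were collected 1, 2, 4 and 8 weeks later. According to the paper, injured controls were given an equal volume of medium without cells. Which of T1, T2, T4 and T8 this covers is not stated there. T1_NPC animals received NPC right after the contusion and T2_NPC animals 1 week after it, each at 2 injection points, 2 mm rostral and 2 mm caudal of the epicentre, and both groups were collected 1 week after transplantation. The NPC were grown from injured adult rat cord, so transcripts of the grafted and the host cells are not distinguished by these probes. Tacrolimus (FK-506) at 1 mg/kg is described from the day before transplantation onward, and whether animals without a graft received it is not clear from the sources used here. The labels name a different range of thoracic segments for T2_NPC than for the other groups, with the same dissected length.

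Endothelial cells of spinal cord capillaries are sealed to each other by tight junctions, in which claudin-5 and occludin span the membrane and ZO-1, the product of Tjp1, ties them to the actin skeleton. P-glycoprotein, encoded in rodents by Abcb1a and Abcb1b, pumps many drugs out of these cells into the blood. VEGF-A acts on endothelium mainly through VEGFR2 (Kdr), is also bound by VEGFR1 (Flt1), and is known for raising vascular permeability and driving vessel growth, while the angiopoietins act through Tie2 (Tek). In whole tissue, fewer cells of a type and less RNA per cell cannot be told apart.

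Between 74.5% and 82.7% of spots were well above background on an array. The 28 arrays came from 7 slides read in 3 scan sessions; the time-course arrays of every group were divided between sessions 1 and 2 and the groups shared slides, whereas T1_NPC and T2_NPC each filled a slide of session 3 alone, so that graft and slide cannot be told apart. On 16 arrays the deposited scanner output and the normalized value table disagree about which sample was hybridized, and the values below follow the value table. Against T0, the value table's names gave 15657, 14176, 13638 and 14098 called features in time order, and the scanner outputs' names gave 0, 1, 0 and 0. The 12 undisputed arrays are 8 time-course arrays of session 1 (2 of T0, 1 of T1, 2 of T2, 1 of T4 and 2 of T8) and all 4 of T2_NPC. Results from them alone are given beside the main ones where they bear on a call, and for T1 and T4 they are values of a single array, given with no test. No array of T1_NPC is undisputed. Replicate 2 of T1_NPC stood apart from its group, with a mean Pearson correlation of 0.971 over all features with the other 3 arrays, against 0.979 or more for every other array within its own group. Calls rest on limma with p-values adjusted by the Benjamini-Hochberg method over all 35469 features, and a gene is described as called where the adjusted p was under 0.05.

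The probes are 60 bases long. Those shown belong to genes whose probes disagreed or whose change is described below; coordinates are of rat build rn4, as in the array annotation. Vegfa was measured by a pair of probes, at bases 1014 and 1371 of its transcript. The first begins at the start codon, shown in capitals, at chr9:10521744-10521803 on the plus strand. The second, printed on 10 spots, matches 386 bases of genome at chr9:10528580-10528965 and so crosses an intron.
Vegfa A_44_P300751: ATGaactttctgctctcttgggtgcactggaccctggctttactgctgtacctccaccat
Vegfa A_43_P15572: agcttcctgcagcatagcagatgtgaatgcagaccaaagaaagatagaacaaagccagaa

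The Flt1 probes gave different results after transplantation. One starts at base 1641 of the transcript, in the part that codes for the outer domain of the receptor, and spans 17098 bases of genome (chr12:7924711-7941808, plus strand). The other, A_43_P12015, starts at base 4406 (chr12:8035639-8035698, plus strand), and whether that base is coding is not given in the sources used here.
Flt1 A_44_P520123: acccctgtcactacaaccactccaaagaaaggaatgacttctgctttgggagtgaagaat

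For Vwf, one probe starts at base 4170 (chr4:161809533-161809592) and the other at base 8239, across an intron (chr4:161853997-161854486), both on the plus strand. The only Cldn5 probe lies in the coding sequence (chr11_random:1224740-1224799, minus strand), and the only Pecam1 probe at chr10:96057717-96057776 on the minus strand.
Vwf A_43_P15902: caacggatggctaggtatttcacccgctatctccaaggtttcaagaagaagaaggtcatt
Vwf A_44_P1025918: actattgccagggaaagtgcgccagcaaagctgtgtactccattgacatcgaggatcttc
Cldn5 A_43_P15791: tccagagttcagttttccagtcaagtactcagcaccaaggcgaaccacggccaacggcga
Pecam1 A_44_P305223: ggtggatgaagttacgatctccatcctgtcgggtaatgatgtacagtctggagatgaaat

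The other probes are given by position: Ocln at chr2:31319306-31319365 and chr2:31318489-31318548 (minus strand), 4 Tjp1 probes between bases 2163 and 5368 of the transcript on chromosome 1, a pair of Tek probes on chromosome 5, Abcb1a at chr4:21795859-21795918 (plus strand), and a Kdr probe at base 5792 of its transcript with no genome position in the annotation. Every probe was well above background on all 28 arrays except Vwf A_43_P15902, on 26, and Tek A_44_P335594, on 5.

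Of the 10 genes, Vegfa fell and Ocln rose at each of the 4 times after injury. The remaining calls against T0 were made at some times only: Abcb1a was lower at T1 and T2, Kdr lower at T1 and T4, Vwf higher at T1 and T8, and Pecam1 higher at T1. In the main fit (value table, probe means, all 28 arrays, no block), no member was called between injured groups. The times of these calls are therefore not shown to differ from the other times. Cldn5, Tjp1, Flt1 and Tek were called at no time in the main fit. At T1, 3 members were higher (19.1% of all features were called higher) and 3 lower (25.1% of all features). At T2, 1 was higher (17.7% of all features) and 2 lower (22.2%). At T4, 1 was higher (17.5%) and 2 lower (21.0%), and at T8, 2 were higher (18.2%) and 1 lower (21.5%). With 10 members, counts this near the background are no result about the set as a whole. In time order, the median log2 difference over the members was 0.04, -0.06, -0.11 and -0.02, beside -0.10, -0.05, -0.06 and -0.04 over all features. All 15 calls kept their sign within scan session 1 and within scan session 2. The sessions are parts of the same arrays that gave the calls, so a kept sign is no separate support. Session 1 consists of the undisputed time-course arrays, with a single array each of T1 and T4, so the undisputed values below are not a further check.

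**Figure D1:**
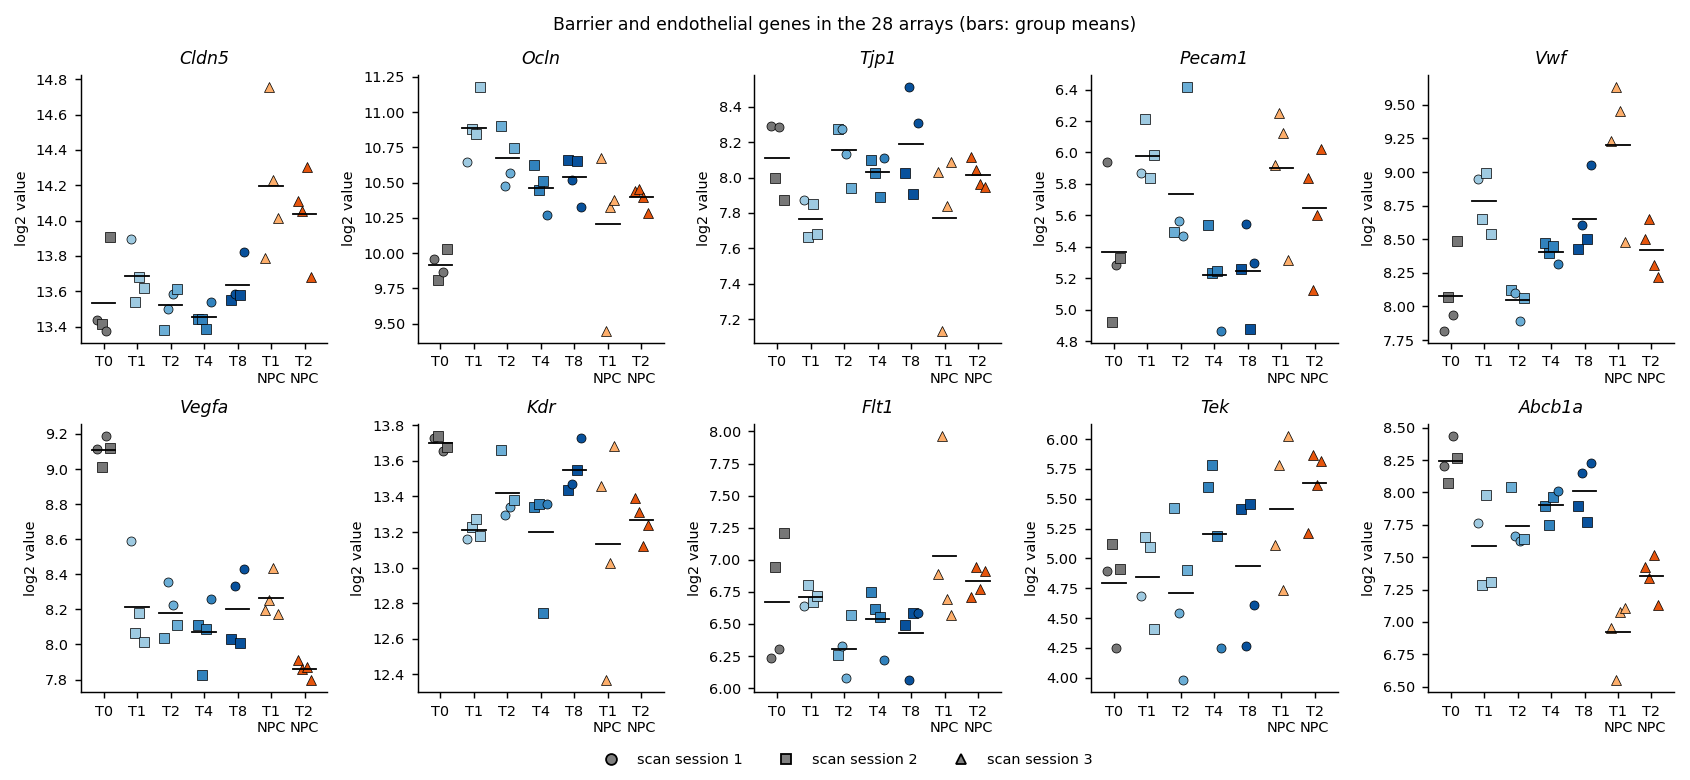
Each panel shows the log2 value of one gene (y axis, mean of its probes) on each of the 28 arrays, by group (x axis); marker shape gives the scan session and black bars are group means of 4 arrays. Every injured array without a graft lay below every T0 array for Vegfa and above every T0 array for Ocln, and T1_NPC replicate 2 gave the highest Cldn5 and the lowest Kdr, Ocln and Tjp1 of all arrays.

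**Figure D2:**
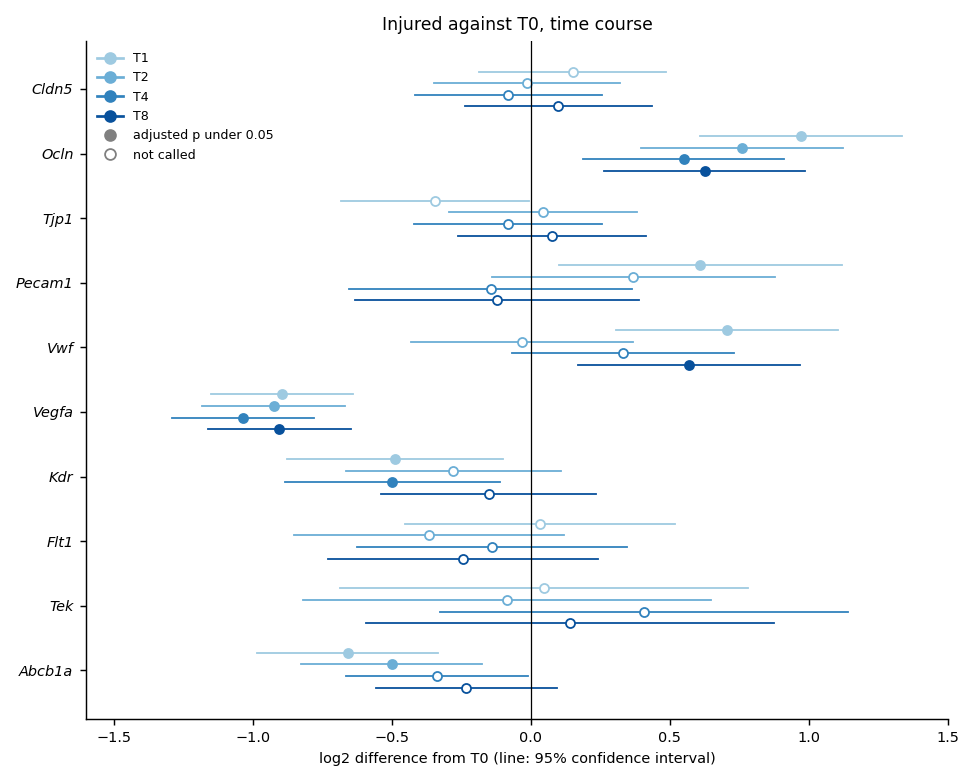
Points are log2 differences (x axis) of T1, T2, T4 and T8 from T0 for each gene, lines their 95% confidence intervals in limma (4 arrays against 4), and filled points were called. All 4 intervals of Vegfa lay below 0 and all 4 of Ocln above 0, while those of Cldn5 lay between -0.42 and 0.49.

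Among the ligand and its receptors, Vegfa had the lowest adjusted p of the 10 members at each time. Its log2 values in T0 were 9.11, 9.01, 9.19 and 9.12. In T1 they were 8.59, 8.06, 8.18 and 8.01, and in T2 they were 8.04, 8.35, 8.23 and 8.11. All 8 of these arrays lay below the lowest T0 array, with T1 replicate 1 the nearest to it. In T4 the values were 8.11, 7.83, 8.09 and 8.26, and in T8 they were 8.03, 8.34, 8.01 and 8.43, again with no overlap with T0. The log2 level fell by 0.89 at T1 (SE 0.12, adjusted p = 2.84e-06), a 1.86-fold difference. The later falls were 1.90-fold, 2.05-fold and 1.87-fold, with adjusted p between 6.02e-07 and 2.95e-06. On the undisputed arrays the differences were -0.56, -0.86, -0.89 and -0.77 in time order. Those of T2 and T8 were called, and those of T1 and T4, from a single array each, are given with no test.

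Both Vegfa probes were called at all 4 times. The probe farther along the transcript gave larger differences, of -1.12 at T1 (SE 0.12) and -1.23 at T8 (SE 0.12), against -0.67 (SE 0.14) and -0.58 (SE 0.14) for the probe at the start codon. Its values were 9.67, 9.66, 9.69 and 9.83 in T0 and between 8.25 and 8.92 in the 16 injured arrays without a graft. The difference between the probes was not tested. Levels of several other cell types moved over the same comparisons. The 4 neuronal markers found were lower at each time (summed linear level 73554 to 98313 in T0 and 13768 to 32068 over T1 to T8). Of the 5 astrocyte markers 1 was higher at each time, and 2, 1, 0 and 1 were lower in time order. Summed astrocyte levels were 54146 to 63417 in T0 and 46063 to 58856 in T1. In T2, T4 and T8 they were 65815 to 76832, 70792 to 98573 and 72438 to 91937. The part of these cell types in the fall of Vegfa was not tested.

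Kdr, the main signalling receptor for VEGF-A on endothelium, was tightly grouped in T0 at 13.73, 13.74, 13.65 and 13.68. In T1 it stood at 13.16, 13.23, 13.28 and 13.18, and in T4 at 13.34, 13.36, 12.74 and 13.36. No T1 or T4 array reached the T0 range, and T4 replicate 3 was well below its group. The log2 difference was -0.49 (SE 0.19, adjusted p = 0.0370) at T1 and -0.50 (SE 0.19, adjusted p = 0.0377) at T4, whereas at T2 it was -0.28 (adjusted p = 0.257) and at T8 -0.15 (adjusted p = 0.574). Both calls were near the threshold. The T1 call was lost when any array of T0, or T1 replicate 1, 2 or 4, was left out (adjusted p 0.0497 to 0.0727 over the 8 omissions), and the T4 call without any array of T0 or without T4 replicate 3, when the difference was -0.35 (adjusted p 0.0364 to 0.167 over the 8 omissions). The undisputed T1 array differed from T0 by -0.53 and the undisputed T4 array by -0.33.

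Flt1, the decoy-like receptor for VEGF-A, was called at no time without a block, with differences of 0.03, -0.37, -0.14 and -0.24 (SE 0.23) at T1, T2, T4 and T8. Its T0 arrays divided by scan session, at 6.24 and 6.31 in session 1 and 6.94 and 7.21 in session 2, and the session difference over the time course was 0.36. With scan session in the fit the T2 difference was called (adjusted p = 0.0433). Tek, the Tie2 receptor, was dim and the most scattered member, from 3.98 to 5.78 in the 20 time-course arrays. Its session difference was 0.77, and its differences from T0 were between -0.08 and 0.41 (SE 0.35), none called. Within arrays, Flt1 minus Kdr differed from T0 by 0.52, -0.09, 0.36 and -0.09 in time order (exact permutation test, two-sided, p = 0.0857 for T1 and 0.286 or more otherwise, adjusted p 0.343 or more over the 4 comparisons).

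The wider VEGF and angiopoietin list, with other ligands, co-receptors and hypoxia factors, held only higher calls. Of its 12 genes, 4, 3, 4 and 7 were higher than T0 in time order, and none was lower, with list medians of 0.43, 0.34, 0.17 and 0.68. Over all features 19.1%, 17.7%, 17.5% and 18.2% were called higher and 25.1%, 22.2%, 21.0% and 21.5% lower. The medians over all features were -0.10, -0.05, -0.06 and -0.04. Angpt2, a ligand of Tie2 known from remodelling vessels, rose by 2.57 (SE 0.37) at T1 and by 2.25 (SE 0.37) at T8. Nrp1, a co-receptor for VEGF, rose by 2.41 (SE 0.34) at both T1 and T2. Angptl4 rose by 2.67 (SE 0.20) at T1 and was 0.77 above T0 at T8, and the fall from T1 to T8 was called. Vegfc, best known for growth of lymphatic vessels, was 1.23 above T0 at T8 and its rise from T4 to T8 was called.

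Ocln was the member that rose throughout. Its log2 values were 9.96, 9.81, 9.86 and 10.03 in T0. In T1 they were 10.64, 10.88, 10.84 and 11.18, and in T2 they were 10.90, 10.48, 10.57 and 10.75. T1 held the highest array of the whole set, and no injured array without a graft came down to the T0 range. In T4 the values were 10.63, 10.45, 10.51 and 10.27, and in T8 they were 10.66, 10.52, 10.65 and 10.33. The rise was 0.97 at T1 (SE 0.18, adjusted p = 7.7e-05), a 1.96-fold difference, and 1.69-fold, 1.46-fold and 1.54-fold at T2, T4 and T8 (adjusted p 0.00112, 0.0152 and 0.00585). Both probes were called at each of these times, at 1.02 and 0.92 for T1. The undisputed arrays gave rises of 0.61 for T2 and 0.51 for T8, both called, and the single T1 and T4 arrays stood 0.73 and 0.36 above T0.

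Occludin is also a junction protein of epithelia. Of the 3 epithelial and epidermal markers, Epcam and Cdh1 were higher at every time and Krt5 was called at none, and their summed linear level was 83.2 to 112 in T0, 297 to 1350 in T1 and 5308 to 8588 in T8. Ocln differed by -0.35 between T1 and T8, not called. Leukocyte markers, all 6 higher at each time, rose from a summed level of 22369 to 26876 in T0 to 107119 or more in every injured group without a graft. The part of either in the rise of Ocln was not tested.

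Cldn5, the claudin that dominates endothelial junctions of the nervous system, was called at no time. It stood at 13.44, 13.41, 13.38 and 13.91 in T0 and between 13.38 and 13.90 in the 16 injured arrays without a graft. Differences from T0 were 0.15, -0.01, -0.08 and 0.10 (SE 0.16) at the 4 times, with 95% intervals from -0.42 at the lowest to 0.49 at the highest. The undisputed arrays gave 0.29 for T8, not called, and the single T1 array stood 0.49 above T0. Scaled to the 75th percentile the T1 and T8 differences were -0.01 and -0.06, so that Cldn5 had no settled direction.

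Within single arrays, Ocln minus Cldn5 was higher than in T0 by 0.82, 0.77 and 0.63 in T1, T2 and T4 (exact permutation test, two-sided, p = 0.0286, the smallest p that 4 against 4 arrays allow, adjusted p = 0.0381 over the 4 comparisons), and by 0.53 in T8 (exact p = 0.0571). The T0 arrays lay at -3.48, -3.61, -3.52 and -3.88 and every T1, T2 and T4 array lay above them, while T8 replicate 4, at -3.50, fell inside the T0 range. On the undisputed arrays the differences were smaller, between 0.22 and 0.48. The genes and arrays are those of the calls above, so this test is no separate support for the rise of Ocln.

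**Figure D3:**
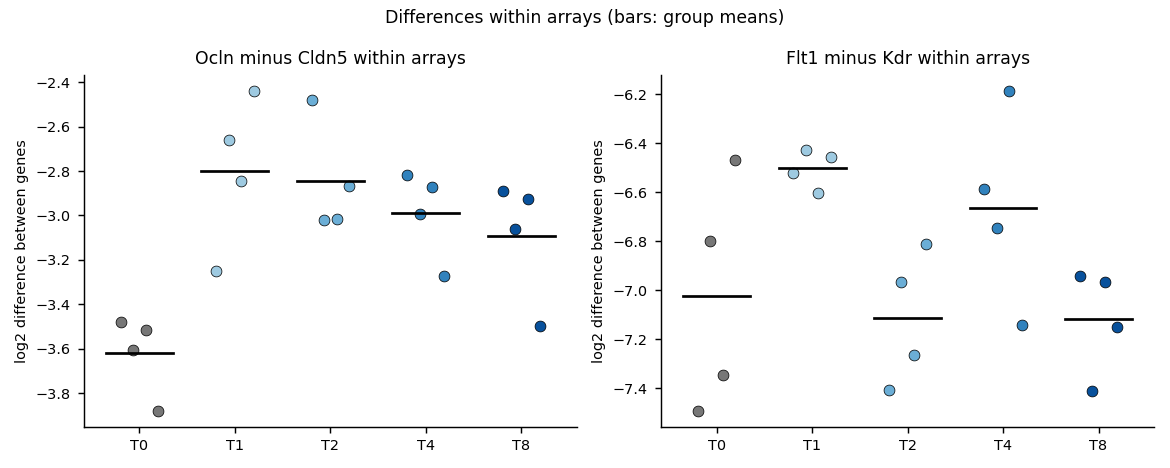
Points are the difference between the log2 values of 2 genes on the same array (y axis) in the time-course groups (x axis, 4 arrays each), and bars are group means. The mean of Ocln minus Cldn5 was lowest in T0, with T8 replicate 4 inside the T0 range, and Flt1 minus Kdr spread as widely within T0 as between groups.

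Tjp1, which codes for ZO-1, was lower at T1 by 0.35 (SE 0.16, adjusted p = 0.0929), a difference that did not pass. Its T0 values were 8.29, 8.00, 8.29 and 7.87 and its T1 values 7.87, 7.67, 7.85 and 7.68, so that the groups met at 7.87 without crossing. With the scan session or the slide in the fit the T1 difference was called (adjusted p 0.0240 to 0.0300). It was also called with the brightest probe and with time-course arrays alone. The probes disagreed: those starting at bases 5368 and 5194 gave -0.53 (called) and -0.51 at T1, and those at bases 2163 and 4488 gave -0.17 each. At T8 the probe at base 2163 was higher than T0 by 0.41 and than T1 by 0.57, both called, while the probes near the transcript's end were at -0.20 and -0.15 against T0.

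In the junction list of 12 other genes, members moved both ways. Of these, 3, 3, 4 and 5 were higher than T0 in time order and 3 were lower each time, with medians of 0.22, 0.07, 0.20 and 0.14. The shares over all features were 17.5% to 19.1% higher and 21.0% to 25.1% lower, with medians from -0.10 to -0.04. Cgn, which codes for cingulin of the junction plaque, was lower by 2.31 (SE 0.53) at T1, and Jam3, an immunoglobulin-like adhesion molecule, fell by 1.04 (SE 0.16) at the same time. Cldn1, a claudin of epithelia and leptomeninges, was 1.76 and 1.64 above T0 at T2 and T4 and 3.77 above it at T8 (SE 0.61). Esam, an adhesion molecule of endothelium and platelets, fell from T1 to T2 by 0.71.

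Vwf, the clotting protein stored by endothelium and platelets, was called higher at T1 and T8. It stood at 7.82, 8.07, 7.94 and 8.49 in T0 and at 8.95, 8.65, 8.99 and 8.54 in T1. Every T1 array was above every T0 array. In T2 it was back among the T0 values, at 8.13, 8.10, 7.89 and 8.07. The T4 arrays, at 8.48, 8.40, 8.45 and 8.31, and the T8 arrays, at 8.43, 8.61, 8.50 and 9.05, overlapped T0 through T0 replicate 4. The difference from T0 was 0.70 at T1 (SE 0.19, adjusted p = 0.00441) and 0.57 at T8 (SE 0.19, adjusted p = 0.0209). The T2 difference of -0.03 and the T4 difference of 0.33 (adjusted p = 0.192) were not called. Without T0 replicate 1, T0 replicate 3 or T8 replicate 4 the T8 call was lost, with differences down to 0.43 and adjusted p up to 0.0948. The undisputed arrays gave 0.95 at T8, called, the single T1 array stood 1.07 above T0, and within session 2 the T8 difference was 0.19.

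The step from T1 to T2 in Vwf was -0.74 (SE 0.19, adjusted p = 0.0536), with no overlap between the groups, and was called with scan session or slide in the fit (adjusted p 0.00744 to 0.0250). Of the 4 platelet markers found, 1 was higher (Pf4, by 4.31 at T1 and 4.13 at T2) and 1 lower at each time. Their summed level was 12335 to 13633 in T0, 20346 to 32707 in T1 and 18687 to 30991 in T2. Their part in the course of Vwf was not tested.

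Pecam1, an adhesion molecule of endothelium that leukocytes and platelets also carry, was dim but well above background on every array. Its values were 5.94, 4.92, 5.28 and 5.33 in T0 and 5.87, 6.22, 5.84 and 5.98 in T1, and these groups overlapped through T0 replicate 1. The rise at T1 was 0.61 (SE 0.25, adjusted p = 0.0482). It was lost when any array other than T0 replicate 1 was left out, in all 7 cases, and the single undisputed T1 array stood 0.26 above T0. The later differences were 0.37, -0.14 and -0.12, none called. All 6 leukocyte markers were higher over the same comparison, as given for Ocln, and their part here was not tested.

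A few other genes of endothelial identity had large differences. Of 17, in time order 8, 7, 8 and 8 were higher, 1 was lower, at T4, and the medians were 0.25, 0.52, 0.37 and 0.31. Among all features 17.5% to 19.1% were called higher and 21.0% to 25.1% lower, with medians from -0.10 to -0.04. Esm1, a secreted proteoglycan of sprouting endothelium, was the largest at every time, rising by 5.83 (SE 0.35) at T1 and by 6.58 (SE 0.35) at T8. Cd34 rose by 3.06 (SE 0.34) at T1 and Thbd, the thrombomodulin gene, by 3.58 (SE 0.35) at T2, genes that haematopoietic and myeloid cells can also express. The 7 mural cell markers found gave 4, 3, 3 and 4 higher and 0, 1, 2 and 1 lower in time order, with summed levels of 21834 to 27411 in T0 and 31339 to 36645 in T1.

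Abcb1a, the P-glycoprotein gene of brain endothelium, was lower early after injury. Its values were 8.20, 8.07, 8.43 and 8.27 in T0. They were 7.76, 7.28, 7.98 and 7.31 in T1 and 8.04, 7.66, 7.63 and 7.64 in T2. All arrays of T1 and T2 were below T0, and T2 replicate 1 came closest. In T4 the values were 7.90, 7.75, 7.96 and 8.01, still without overlap, and in T8 they were 7.89, 8.15, 7.77 and 8.23, with overlap. The difference was -0.66 at T1 (SE 0.16, adjusted p = 0.0014) and -0.50 at T2 (SE 0.16, adjusted p = 0.0133). Neither -0.34 for T4 (adjusted p = 0.0970) nor -0.23 for T8 (adjusted p = 0.266) was called. The T4 difference was called with slide in the fit (adjusted p 0.0402 and 0.0419 as a fixed and a random block) and with only the compared groups (adjusted p = 0.0483). The undisputed arrays gave -0.67 at T2, called, and the single T1 array differed by -0.55. From T1 to T8 no call was made: T8 was above T1 by 0.43 (adjusted p = 0.0965), and was called without T1 replicate 3 (0.56, adjusted p = 0.0243).

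The barrier transport list of 10 genes found gave 2, 1, 3 and 2 higher and 3, 2, 1 and 2 lower than T0 in time order, with medians of -0.06, -0.09, 0.30 and 0.27. The shares over all features were 17.5% to 19.1% higher and 21.0% to 25.1% lower, with medians from -0.10 to -0.04. Slco1c1, a thyroxine carrier of brain capillaries and astrocytes, fell by 1.20 (SE 0.30) at T1, and Tfrc, the transferrin receptor, fell by 1.12, 1.15 and 1.30 in T2, T4 and T8 (SE 0.18). Slc38a5, a glutamine transporter, rose by 1.16 at T1 and at T2 and by 1.03 at T4 (SE 0.34). Slc16a1, the lactate carrier MCT1, rose from T1 to T8 by 0.82. The paralogue Abcb1b, measured by its own probe, differed from T0 by between -0.22 and 0.34 (SE 0.29) and was not called.

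**Figure D4:**
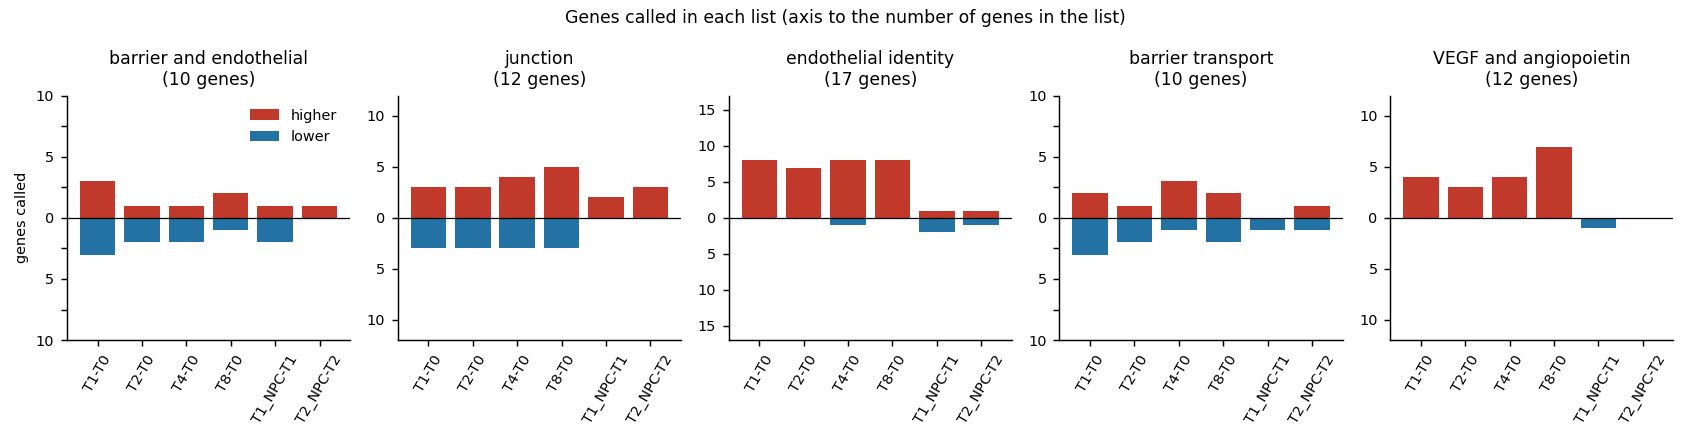
Bars count genes called higher (up, red) or lower (down, blue) for the 10 barrier and endothelial genes and 4 lists of related genes (panels), in 6 comparisons (x axis), with the y axis reaching the number of genes found. In the endothelial identity and the VEGF and angiopoietin lists all calls against T0 but 1 were higher, and calls against T1 and T2 after transplantation were few. Over all features 17.5% to 19.1% were called higher than T0 and 21.0% to 25.1% lower. After transplantation 4.62% to 5.45% were called higher and 4.85% to 6.46% lower.

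Between injured groups no member was called in the main fit. From T1 to T2, 1.48% of all features were called and 2 members, Tjp1 and Vwf, had an unadjusted p under 0.05. Over all features 0.0761% were called from T2 to T4 (1 member, Pecam1, unadjusted) and 0.0902% from T4 to T8 (0 members unadjusted). Between T1 and T8 the share was 9.87%, and Abcb1a, Pecam1 and Tjp1, 3 members, had an unadjusted p under 0.05. At that unadjusted threshold stood 4932 of all 35469 features from T1 to T2 and 3198 from T2 to T4. From T4 to T8 it was 1716 features, and between T1 and T8 it was 7425. With 10 members, these unadjusted counts are no result about the set as a whole. Pecam1 was lower at T8 than at T1 by 0.73 (SE 0.25, adjusted p = 0.0622) with no overlap between groups.

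Against time-matched injured cords, transplantation right after injury was accompanied by higher Cldn5 and lower Ocln and Abcb1a, and transplantation after 1 week by higher Cldn5. For T1_NPC against T1, 1 member was higher (5.45% of all features) and 2 were lower (6.46%). For T2_NPC against T2, 1 was higher (4.62%) and 0 lower (4.85%). At an unadjusted limma p under 0.05 stood 4 members for T1_NPC against T1, beside 9518 of all 35469 features. For T2_NPC against T2, 5 members stood at that threshold, beside 8604 features. With so few members, these unadjusted counts are no result about the set as a whole. Member medians were 0.03 and -0.11, and those over all features -0.01 and -0.03. Slide and scan session cannot be told apart from the graft in any of these values, and for T1_NPC the values rest wholly on the value table's sample names. Tacrolimus and medium injection, unclear for animals without a graft, and the segment range labelled for T2_NPC are not separated from the graft either.

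Cldn5 stood at 13.79, 14.76, 14.23 and 14.02 in T1_NPC, against 13.90, 13.54, 13.68 and 13.62 in T1. In T2_NPC it was 14.11, 14.06, 14.31 and 13.68, against 13.38, 13.50, 13.59 and 13.61 in T2. All T2_NPC arrays were above T2, and in T1_NPC replicate 1 was below the top of T1. The difference was 0.51 (SE 0.16, adjusted p = 0.0405) for T1_NPC and 0.52 (SE 0.16, adjusted p = 0.0450) for T2_NPC, a rise of 1.43-fold in both. Neither call was stable. Without T1_NPC replicate 2 the first was 0.33 (adjusted p = 0.170), and it was also lost without T1 replicate 2, 3 or 4 or T1_NPC replicate 3. The second was lost without any single array but T2_NPC replicate 4 (differences 0.43 to 0.64, adjusted p 0.0227 to 0.140). On the undisputed arrays the T2_NPC difference was 0.50 (adjusted p = 0.0761). Red blood cell markers had summed levels of 5319 to 23147 in T2_NPC against 1848 to 4097 in T2, and 1 of 3 was called higher. In T1_NPC they were 4059 to 9991 against 3635 to 7136 in T1. Their part was not tested.

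Ocln in T1_NPC was 10.68, 9.45, 10.33 and 10.38, against 10.64 to 11.18 in T1, with only replicate 1 inside the T1 range and replicate 2 below all T0 arrays. The difference was -0.68 (SE 0.18, adjusted p = 0.0137). Without T1_NPC replicate 2 it was -0.43 (adjusted p = 0.0430), and without T1 replicate 4 the call was lost (adjusted p = 0.0525). In T2_NPC the values, 10.44, 10.46, 10.40 and 10.29, all lay below the lowest T2 array, but the difference of -0.28 (adjusted p = 0.348) was not called, nor was -0.13 on the undisputed arrays. Of the probes, A_44_P1007729 was called at -0.82 for T1_NPC and A_43_P12552, at -0.54, was not.

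Abcb1a was lowest in T1_NPC, at 6.95, 6.55, 7.08 and 7.11 in T1_NPC, every one below the lowest T1 array. In T2_NPC it was 7.42, 7.34, 7.52 and 7.13, all below T2. The T1_NPC difference was -0.66 (SE 0.16, adjusted p = 0.0082), and -0.54 (adjusted p = 0.0360) without replicate 2. The call was lost with only the compared groups in the fit (adjusted p = 0.134), and the sign turned with the scanner outputs' names (0.29). For T2_NPC it was -0.39 (SE 0.16, adjusted p = 0.124), and -0.29 on the undisputed arrays, not called.

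Vegfa in T1_NPC, at 8.19, 8.25, 8.44 and 8.17, overlapped T1 (difference 0.05, 95% interval -0.20 to 0.31). In T2_NPC it was 7.91, 7.86, 7.87 and 7.80, below every T2 array, with a difference of -0.32 (SE 0.12, adjusted p = 0.104). The undisputed arrays, 4 against 2, gave -0.43, called (adjusted p = 0.0112). Both undisputed T2 arrays are of session 1, and Vegfa in session 2 differed from session 1 by -0.27 over the time course. With all arrays, the probe A_43_P15572 alone was called in T2_NPC (-0.46, SE 0.12, adjusted p = 0.0185), and the start codon probe, at -0.19, was not. In T1_NPC the probes pointed in opposite directions, at -0.29 and 0.40, neither called.

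The pair of Flt1 probes differed after transplantation. The probe at base 4406 stood at 6.46, 6.69, 6.58 and 6.68 in T2_NPC against 5.52, 5.54, 5.22 and 6.03 in T2, a rise of 1.02 (SE 0.26, adjusted p = 0.0131) with no overlap. The probe at base 1641 stood at 6.96, 7.21, 6.96 and 7.13 against 6.99, 7.11, 6.94 and 7.11, a difference of 0.03 (SE 0.28). The gene mean gave 0.53 (adjusted p = 0.168), and 0.63, called, on the undisputed arrays (adjusted p = 0.0289). Both undisputed T2 arrays are of session 1, and the session difference of Flt1 over the time course was 0.36. For T1_NPC the probes at bases 4406 and 1641 gave 0.63 and 0.02, neither called, and the difference between the probes was not tested.

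**Figure D5:**
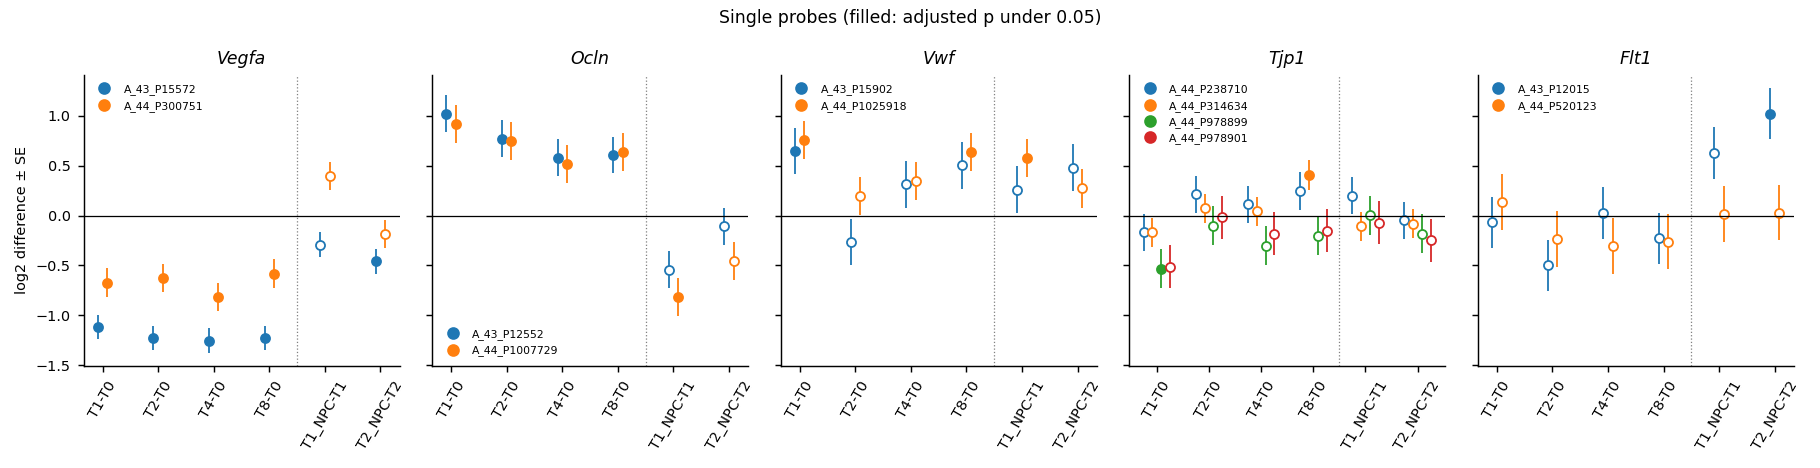
Points are log2 differences (y axis) with their SE for each probe of Vegfa, Ocln, Vwf, Tjp1 and Flt1 in 4 injury and 2 transplantation comparisons (x axis, 4 arrays against 4), and filled points were called. Both Vegfa and both Ocln probes were called at every time after injury, and only the Flt1 probe A_43_P12015 was higher in T2_NPC.

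Kdr, Tjp1, Pecam1, Tek and Vwf were not called in either transplantation comparison in the main fit. Kdr differed by -0.08 and -0.15 (SE 0.19) and Tjp1 by 0.01 and -0.14 (SE 0.16). Vwf was higher by 0.42 and 0.38 (SE 0.19, adjusted p 0.165 and 0.236), and its first difference was 0.66 and called without T1_NPC replicate 4 (adjusted p = 0.0125). It was also called with normexp correction (adjusted p = 0.0235), and the probe A_44_P1025918 alone was called in T1_NPC (0.57, SE 0.19, adjusted p = 0.0498). Tek was higher by 0.57 and 0.92 (SE 0.35, adjusted p 0.317 and 0.106), and on the undisputed arrays its T2_NPC difference was 1.37 and called (adjusted p = 0.0127). Both undisputed T2 arrays are of session 1, where Tek stood at 4.55 and 3.98. The T2 arrays of session 2, absent from that fit, stood at 5.42 and 4.90. The effects of the early and the later graft were compared directly for each member: 0.299% of all features and 0 members were called, Vegfa being the 1 member with an unadjusted p under 0.05 (difference of effects -0.38, adjusted p = 0.428), and for Cldn5 the effects differed by 0.00 with a 95% interval from -0.47 to 0.48.

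Among related genes, 2 of 12 junction genes were higher in T1_NPC (Cldn3 by 0.93, SE 0.24, and Jam3 by 0.68, SE 0.16) and 3 in T2_NPC, with F11r up by 0.61 and Jam3 by 0.54. Of 17 endothelial identity genes, 1 was higher and 2 lower in T1_NPC and 1 higher and 1 lower in T2_NPC. Sox17, a transcription factor of arterial endothelium, fell by 0.86 and 0.76 (SE 0.22), Cd34 fell by 1.32 (SE 0.34) in T1_NPC, and Mcam rose by 0.57 in T1_NPC and 0.58 in T2_NPC (SE 0.17). In the VEGF and angiopoietin list the only call was Vegfb, lower by 0.99 (SE 0.16) in T1_NPC. Among transport genes Slco1c1 fell by 0.91 (SE 0.30) in T1_NPC, and in T2_NPC Abcc4 rose by 0.71 and Slc16a1 fell by 0.37. List medians were 0.21 and 0.43 for junction genes, -0.04 and 0.06 for endothelial identity, -0.13 and 0.14 for the VEGF list and -0.08 and 0.18 for transport. Over all features the medians were -0.01 and -0.03. The shares over all features were 5.45% higher and 6.46% lower in T1_NPC, and 4.62% higher and 4.85% lower in T2_NPC.

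The promoter sequences of the 2 genes that changed at every time after injury are shown as the 250 bases before the annotated start, from RefSeq for build GRCr8; the reference table held 7 of the 10 members. Capitals mark GGGCGG, the GC box, searched on both strands, which 30.5% of 33469 promoters of this length hold. The first of the 2 Vegfa entries (chr9:22452604-22452853, plus strand, 60.4% G or C) held 3 matches and Ocln (chr2:33441199-33441448, minus strand, 66.4%) held 0. Neither held ACGTG, the core of the hypoxia response element, present on either strand in 16.6% of promoters. The second Vegfa entry held 0 matches to GGGCGG and 0 to ACGTG. Only these 250 bases were searched, so matches farther from the start are not covered. The arrays do not measure promoter activity or binding.
Vegfa promoter: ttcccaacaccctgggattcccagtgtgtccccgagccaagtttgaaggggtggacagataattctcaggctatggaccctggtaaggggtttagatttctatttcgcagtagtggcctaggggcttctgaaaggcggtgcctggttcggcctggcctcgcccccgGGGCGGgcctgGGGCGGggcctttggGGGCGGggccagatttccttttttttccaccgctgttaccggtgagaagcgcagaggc
Ocln promoter: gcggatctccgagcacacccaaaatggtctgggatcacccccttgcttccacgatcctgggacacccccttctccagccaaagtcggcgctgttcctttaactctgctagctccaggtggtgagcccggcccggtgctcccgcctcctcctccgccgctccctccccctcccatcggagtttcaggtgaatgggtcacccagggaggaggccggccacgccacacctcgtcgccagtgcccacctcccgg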

How the data were processed

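RNA (500 ng) of each cord was labelled with Cy3 and hybridized to rat 4x44K arrays. The authors deposited, per array, scanner output from Agilent Feature Extraction, which holds intensity values (processed signal, background-corrected but not normalized between arrays), and a value table of log2 values that are quantile normalized between arrays; each array's median there was 7.25. The value table was the input here; its own sample names were kept, and each column's slide and scan session are those of the only scanner output ranking the spots identically (Spearman 1, next highest 0.993). Scanner flags marked spots well above background. The reference distribution of the quantile step is not given in the sources used here.

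Control spots were left out, the 43379 others averaged to 41012 probes and then by gene name to 35469 features. RefSeq accessions were printed for 20503 probes, and the reference table listed 16815 of them. limma 3.58.1 in R 4.3.3 fitted 1 mean per group to all 28 arrays, with empirical Bayes moderation and Benjamini-Hochberg adjustment over all features (over all probes for single probes); differences are on the log2 scale. Within-array differences were tested by exact permutation, adjusted over 4 comparisons. The code was checked on simulated data. The number of arrays limits the precision, and the replicates are separate animals per the labels.

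The members and lists were chosen with earlier results of these data known. Named are the 10 members with every probe, the 2 called genes of largest change per list and comparison, and the 3 features most correlated with Cldn5, Kdr and Vegfa. All genes of the lists were found except Mfsd2a among transporters, and Acta2, Itga2b, Epb42 and Rbfox3 among cell type markers. Other cell types checked were oligodendrocytes (3 of 5 markers lower at T1), fibroblasts (4 of 4 higher at every time) and skeletal muscle (1 of 5 higher and 2 lower at T1). Alternatives were scaling to the 75th percentile, normexp correction (offset 50; on the median spot signal, since most scanner outputs lack the mean), the scanner outputs in either assignment, outlier spots left out, the brightest probe, dim probes left out, blocks for session, slide and replicate number, smaller sets of arrays and each array left out in turn. A value uncalled in both settings was counted as unchanged.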

Additional observations from a re-analysis of the deposited data

Results flagged for a closer look

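In 6 of 70 sets of 4 arrays (10 members in 7 groups), a single array stood far from the other 3; chance alone flags about 1 set in 20. In Cldn5, T0 replicate 4 was at 13.91 with the others between 13.38 and 13.44, and T8 replicate 4 was at 13.82 with the others between 13.55 and 13.58. In Pecam1, T2 replicate 4 was at 6.42 against 5.47 to 5.56. Kdr in T4 replicate 3 was at 12.74 against 13.34 to 13.36, and the T4 difference from T0 without that array was not called. Flt1 in T8 replicate 2 was at 6.06 against 6.49 to 6.58, and Abcb1a in T2 replicate 1 was at 8.04 against 7.63 to 7.66. No cause was tested.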

How the results depend on the processing

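Named with its sample as deposited, the scanner output gave 0 member calls in limma at T1, T2, T4, T8, T1_NPC and T2_NPC, and 6 called differences changed sign: Kdr at T1 (0.20) and T4 (0.14), Pecam1 at T1 (-0.27), and in T1_NPC Abcb1a (0.29), Cldn5 (-0.30) and Ocln (0.24). Ocln minus Cldn5 was then 0.50, 0.73 and 0.75 at T1, T2 and T4 and not called. In T2_NPC the undisputed arrays gave 3 members (Vegfa, Flt1 and Tek), against T2 arrays that are both of session 1. Ocln minus Cldn5 on the undisputed arrays was 0.25, 0.48, 0.23 and 0.22 at T1, T2, T4 and T8. Requiring a 2-fold change left 0 members at T1, T2, T8, T1_NPC and T2_NPC and 1 at T4 (Vegfa). In T2_NPC against T2 the count was 2 with the brightest probe and 0 with normexp, 75th percentile scaling or the replicate block; with only the compared groups it was 0 for T1_NPC and 1 for T8 against T1. From T1 to T2, 1 member (Vwf) was called with dim probes left out, eBayes trend and robust, session block, slide as a fixed or random block, and time-course arrays alone; for T8 against T1 these gave 1 (dim probes out), 3 (session), 1 and 4 (slide fixed and random) and 2 (time-course alone). Ocln minus Cldn5 at T8 passed with the brightest probe (0.54) and 75th percentile scaling (0.69). That scaling moved the median of all features from -0.10 to -0.28 for T1 against T0, from 0.00 to 0.13 for T2 against T1, from 0.00 to 0.16 for T8 against T1, from -0.01 to 0.11 for T1_NPC against T1 and from 0.00 to -0.14 for the difference of transplantation effects.

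Leaving out 1 array gave 4 to 5 members at T1, 3 at T2, 2 to 3 at T4 and T8, 1 to 4 in T1_NPC, 0 to 1 in T2_NPC and in T8 against T1, and 0 elsewhere; Ocln minus Cldn5 ranged from 0.70 to 0.97, 0.65 to 0.83, 0.54 to 0.73 and 0.44 to 0.66 at T1, T2, T4 and T8, and Flt1 minus Kdr from 0.37 to 0.71, -0.24 to 0.10, 0.20 to 0.55 and -0.25 to 0.09. Replicate numbers did not pair the animals (correlations of deviations between -0.34 and 0.30); the replicate block gave 5 members at T1, 3 at T2, T4 and T8, 2 in T1_NPC and 0 between injured groups. Of 2460 single-gene values under all alternatives, 2202 kept direction and call, and 153 more were uncalled in both settings with the sign turned. The causes were not tested. The scanner outputs and the value table cannot both carry the right sample names, and against T0 15657, 14176, 13638 and 14098 features were called under the value table's names and 0, 1, 0 and 0 under the others. The 4 arrays a group limit what small differences can be seen.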

Other observations

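Over all 28 arrays, the features whose log2 values followed Vegfa most closely, of 10951 named features well above background on every array, were Mif (Pearson r = 0.95), Atp5g3 (0.94) and Acn9 (0.93). For Cldn5 they were Smad1, Prkcsh and Cirbp (0.86 each), and for Kdr Itm2a (0.80), Slc35d2 (0.79) and Hnrph1 (0.78). The arrays share groups, slides and 1 normalization, so these are descriptions. With group means removed the values were 0.76, 0.59 and 0.66 for Vegfa, 0.75, 0.67 and 0.71 for Cldn5, and 0.87, 0.81 and 0.78 for Kdr.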
